A study of Mus musculus with 4 samples.

Results

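The cells described here are the Ly6c2/Plac8 cells of the spinal cord (SC) of mice with experimental autoimmune encephalomyelitis (EAE), a group that was put forward as inflammatory monocytes. They were chosen by transcript counts in single droplets. A barcode was a member when it held at least 2000 unique molecular identifiers (UMIs, each standing for 1 captured transcript) with under 10% from mitochondrial genes, passed a myeloid gate, and held at least 6 UMIs of Ly6c2, Plac8, and Ifitm6 together. The gate asked for at least 10 UMIs of the myeloid genes Tyrobp, Fcer1g, and Ctss and for almost none of endothelial, T cell, microglial, and neutrophil genes. Members were further held to 4 limits, among them at most 2 UMIs each of Gpnmb and Ms4a7 and 0 of Nos2, on genes that mark macrophages and activated myeloid cells. The rule found 1360 cells among 5908 in the gate and 26525 barcodes that passed the UMI and mitochondrial limits. The mIgG1 and Ang2 Ab libraries gave 360 and 416 of them, and the Ctrl and EC-Ang2 libraries 282 and 302.

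Each condition was 1 library of sorted CD45+ immune cells and CD31+ endothelial cells (ECs), mixed in equal numbers. In the blockade pair, C57Bl/6JOlaHsd wild-type mice of 15 weeks received mIgG1 isotype control or an antibody that blocks angiopoietin-2 (Ang2 Ab) from the day of immunization, and SCs were taken at 14 days postimmunization (dpi). In the overexpression pair, C57Bl/6JCrl mice of 12 to 14 weeks carried both transgenes of the VE-cadherin-tTA;Tet-OS-Ang2 cross (EC-Ang2) or were littermates with only 1 of them (Ctrl), and SCs were taken at 12 dpi. All mice were immunized with MOG35-55 in CFA and given pertussis toxin, 400 ng in the blockade pair and 200 ng in the overexpression pair. The VE-cadherin promoter places the Ang2 transgene in ECs, and it was kept silent by doxycycline until birth. The number of mice behind each library was not given in the sources used here. With 1 library per condition there was no spread between samples, so no difference between conditions was tested, and the 95% intervals below (exact Poisson or binomial) cover counting error only. The pairs also differed from each other in substrain, age, day, toxin dose, and antibody treatment, which cannot be told apart.

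Classical monocytes leave the bone marrow under control of the chemokine receptor Ccr2, carry the surface protein Ly6C, and enter the inflamed central nervous system early in EAE. In the tissue they lose Ly6C and can take on MHC class II, phagocytic, or effector programs. Plac8 and Ifitm6 are transcripts of young myeloid cells, but Plac8 is also found in dendritic cells and lymphocytes.

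The label was checked first. The members of mIgG1, Ang2 Ab, Ctrl, and EC-Ang2 held 2018664, 2081940, 2011521, and 1943424 UMIs, with medians of 5022, 4552, 7048, and 6354 UMIs per cell. Levels are UMIs summed over the members of a library per 1000000 of their UMIs (CPM). Of the 5 marker genes, Ly6c2, Plac8, and Ifitm6 chose the members, so higher Plac8 and Ifitm6 in them is no check. Ccr2 and the membrane protein gene Ms4a4c were outside the rule and were higher in members than in the other gated cells in all 4 libraries. Ccr2 was at 366, 375, 467, and 429 CPM in mIgG1, Ang2 Ab, Ctrl, and EC-Ang2 members and at 145, 159, 215, and 182 CPM in the other gated cells. Ms4a4c was at 826, 1428, 1551, and 1413 CPM against 248, 499, 1182, and 703 CPM. A list of classical monocyte genes outside the rule went both ways. Of 21 compared, 9 were higher and 7 lower in members in all 4 libraries, with median log2 ratios of 0.006, 0.21, 0.24, and 0.52. Among all 4622 genes compared, 1442 were higher and 1131 lower in all 4. Ly6c2, which names the group, was not higher throughout even though the rule used it. Ly6c2 and Ly6c1, Ifit3 and Ifit3b, and Chil3 and Chil4 are close copies of each other, so UMIs of these genes may be split between copies, which was not tested. Its level in members was 1733, 1596, 1314, and 2636 CPM, and in the other gated cells 1140, 1585, 2064, and 3102 CPM, so it was lower in members in both libraries of the overexpression pair. Plac8 made up 71.3%, 78.5%, 83.9%, and 72.9% of the UMIs that chose the members. Ly6c2 and Ifitm6 alone would not have reached 6 UMIs in 49.2%, 48.8%, 42.6%, and 31.1% of them.

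**Figure D1:**
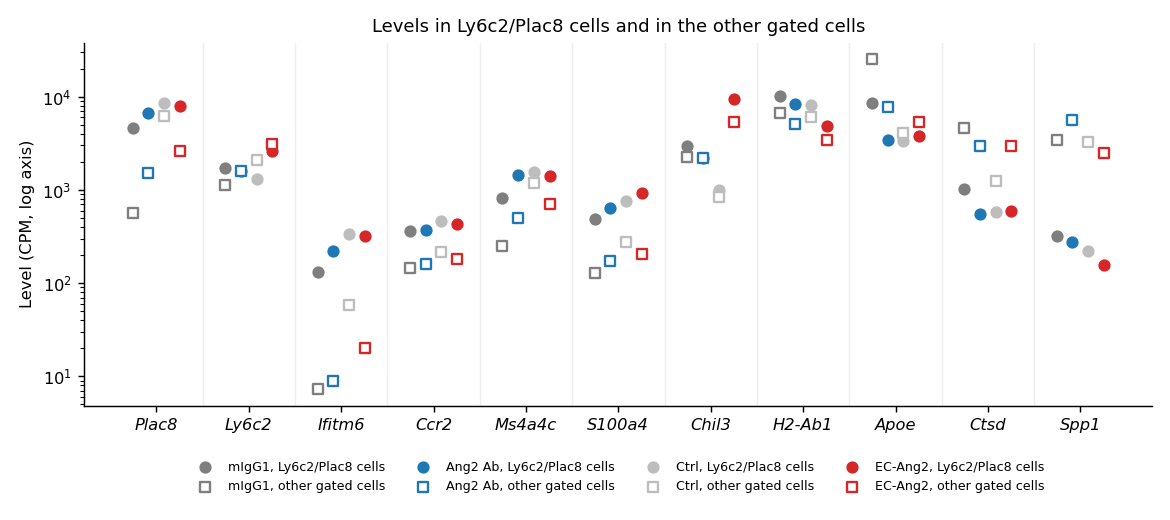
Levels in CPM (log axis) of 11 genes in Ly6c2/Plac8 cells (filled circles) and in the other cells of the myeloid gate (open squares), 1 point per library. Ccr2, Ms4a4c, and S100a4 were higher in members in all 4 libraries, as were the rule genes Plac8 and Ifitm6, Apoe, Ctsd, and Spp1 were lower, and Ly6c2 was on either side.

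Part of the group did not look like monocytes. Members without any Ly6c2 UMI numbered 70 (19.4%), 66 (15.9%), 68 (24.1%), and 36 (11.9%) in mIgG1, Ang2 Ab, Ctrl, and EC-Ang2. They carried the lysozyme gene Lyz2, abundant in monocytes and macrophages, at 3166, 5249, 3944, and 5794 CPM, against 21063, 12962, 15471, and 16422 CPM in members with at least 4 Ly6c2 UMIs. In the same cells Cst3, the gene for cystatin C and high in dendritic cells, was at 16104, 11977, 8258, and 8901 CPM against 2968, 4827, 2791, and 3244 CPM. The nonclassical class II subunit H2-DMb2 was at 778, 381, 532, and 338 CPM against 26.2, 123, 53.7, and 97.6 CPM. At least 2 UMIs of 9 dendritic cell genes (Flt3, Xcr1, Clec9a, Cd209a, Zbtb46, Wdfy4, Ccr7, Fscn1, and Ccl22) were found in 62 (17.2%), 69 (16.6%), 63 (22.3%), and 34 (11.3%) members. At least 2 UMIs of 6 NK cell genes were found in 5, 6, 4, and 4 members. The rule therefore took in cells with dendritic cell transcripts, whose share of members was highest in Ctrl and lowest in EC-Ang2. For some genes and lists, values are given below also without the members that held dendritic or NK cell transcripts, which left 294, 344, 215, and 264 cells. They are also given for members with at least 4 Ly6c2 UMIs, 203, 222, 156, and 198 cells. Both restrictions were chosen after the data were seen.

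Markers of cells other than myeloid cells were low. B cell genes summed to 2.97, 2.40, 3.48, and 3.09 CPM in mIgG1, Ang2 Ab, Ctrl, and EC-Ang2 members, with 4, 3, 3, and 4 of the 5 genes at 0, and astrocyte genes to 23.8, 13.5, 29.3, and 13.9 CPM. The 13 endothelial genes outside the rule summed to 453, 474, 393, and 341 CPM, led by Ly6c1 or Ctla2a, and none of the 13 was at 0. From these genes, RNA that floats free and enters every droplet was put at 5.25%, 5.31%, 4.08%, and 3.67% of the members' UMIs. Ly6c1 may hold UMIs of Ly6c2, which members express, so this estimate may be too high. The free RNA values below rest on it. At 4000 UMIs per cell, Ly6c2 was detected in 75.9%, 81.6%, 72.2%, and 83.8% of members, and in 14.5%, 16.3%, 7.91%, and 16.6% of ECs, which should lack it (80.1%, 85.3%, 78.4%, and 90.4% of the same members and 20.5%, 23.3%, 12.4%, and 30.2% of the same ECs before thinning). Plac8 was detected in 95.1%, 97.8%, 99.2%, and 98.9% of members and in 6.27%, 12.3%, 13.1%, and 12.9% of ECs at that depth. Of 12 neutrophil genes outside the rule, S100a8 was the most abundant, at 475, 322, 515, and 583.5 CPM, and 3, 3, 1, and 2 of the 12 were at 0. Across libraries, 34 members had a barcode that also occurred among the barcodes of another library that passed the UMI and mitochondrial limits, and 1 barcode was shared between members of Ang2 Ab and EC-Ang2.

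The first comparison asked how many of the myeloid cells were Ly6c2/Plac8 cells when Ang2 was blocked or overexpressed. They made up 21.5% (19.5% to 23.5%) of the gate in mIgG1 and 20.6% (18.8% to 22.4%) in Ang2 Ab. In the overexpression pair they made up 37.3% (33.8% to 40.8%) in Ctrl and 20.8% (18.8% to 23.01%) in EC-Ang2. The blockade pair overlapped within counting error, and Ctrl stood above the other 3 libraries. The gate, the denominator here, held 757 cells in Ctrl and 1677, 2024, and 1450 in mIgG1, Ang2 Ab, and EC-Ang2. Of barcodes with a UMI of Ptprc (CD45), which 272, 313, 237, and 248 members held, members were 9.12% (8.11% to 10.2%), 11.2% (10.03% to 12.4%), 10.8% (9.53% to 12.2%), and 11.3% (10.04% to 12.7%) in mIgG1, Ang2 Ab, Ctrl, and EC-Ang2. On that denominator the Ctrl and EC-Ang2 intervals overlapped. Before the 4 limits, cells with 6 or more UMIs of the 3 genes were 62.6%, 67.2%, 84.2%, and 85.9% of the gate, so Ctrl and EC-Ang2 were close before the limits were applied. Of those 1049, 1360, 637, and 1245 cells, at least 1 limit was exceeded in 689, 944, 355, and 943. The limit on the macrophage gene Gpnmb was exceeded in 261, 187, 20, and 249, and that on Ms4a7 in 208, 134, 16, and 159. Nos2, the inducible nitric oxide synthase, was found in 224, 337, 225, and 526 of them. Few cells lay at the threshold. Within the limits, 12, 7, 4, and 5 cells had 5 UMIs of the 3 genes and stayed outside, and 10, 6, 5, and 2 cells had 6 and were inside. Equal sorting of CD45+ and CD31+ cells sets the totals, so these shares say nothing of cell numbers in the SC.

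**Figure D2:**
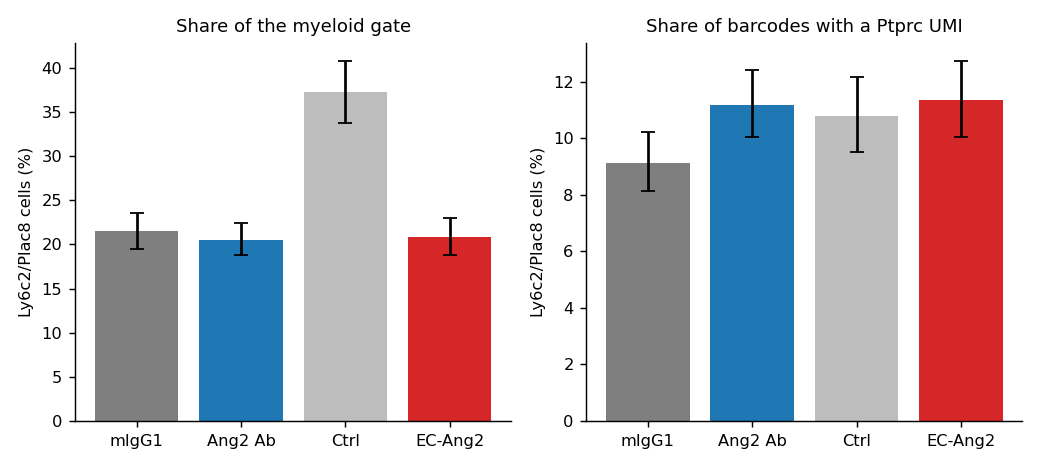
Ly6c2/Plac8 cells in percent of the myeloid gate (left) and members with a Ptprc UMI in percent of all barcodes with one (right), 1 bar per library, with 95% exact binomial intervals for counting error. Ctrl stands apart on the left at 37.3% and not on the right, where it is at 10.8%.

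Against the other gated cells, which include those that the limits removed, the members were set apart by less of the macrophage program. This is a description, since the rule used these cells. Of 23 macrophage differentiation genes measured, 20 were lower in members in all 4 libraries and 0 higher, with median log2 ratios of -1.51, -1.35, -0.83, and -1.18 in mIgG1, Ang2 Ab, Ctrl, and EC-Ang2. Among all 4622 genes compared, 1131 were lower and 1442 higher in all 4. Ctsd, the lysosomal protease cathepsin D, was at 1030, 556, 575, and 600.5 CPM in members and 4630, 2922, 1233, and 2935 CPM in the other gated cells. The complement gene C1qa was at 549, 306, 321, and 177.5 CPM against 1544, 871, 775, and 626 CPM. The genes farthest below the other gated cells were Pdpn (podoplanin), the secreted phosphoprotein gene Spp1, Tnfrsf9, the macrophage elastase gene Mmp12, F7, Inhba, Lhfpl2, Slc7a2, Cd63, Fam20c, Vat1, Il7r, Comtd1, Hilpda, and A930007I19Rik. Of 19 glycolysis and hypoxia genes, 18 were lower in all 4 libraries.

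On the other side, 19 of 22 interferon-induced genes and 8 of 8 MHC class II genes were higher in members in all 4 libraries. The interferon list had median log2 ratios of 1.22, 1.29, 0.22, and 0.90 in mIgG1, Ang2 Ab, Ctrl, and EC-Ang2. Isg15, a gene of this list, was lower in Ctrl members, at 2072 against 2172 CPM. The class II part moved with the members that held dendritic or NK cell transcripts. Without them, H2-Ab1 was at 7384, 5741, 5747, and 3492 CPM in mIgG1, Ang2 Ab, Ctrl, and EC-Ang2 against 6604, 5125, 5990, and 3408 CPM in the other gated cells, and Cd74 at 19706, 14751, 16593, and 9067 CPM against 18486, 14134, 15671, and 9313 CPM. H2-Ab1 was then lower in Ctrl members, and Cd74 was lower in EC-Ang2 members. The genes farthest above were Kmo, Klrd1, P2ry10, H2-Oa, Cd244, H2-DMb2, Ifitm1, Klrb1b, Tspan13, Cbfa2t3, Wdfy4, Rnase6, Fyn, Il1r2, and Pkp3. Several of these, among them Kmo, H2-Oa, H2-DMb2, and Wdfy4, are known from dendritic cells. Klrd1 and Klrb1b encode NK cell receptors. Each had a UMI in at least 10% of members of every library, more than the 5, 6, 4, and 4 members with NK cell transcripts. Il1r2, a decoy receptor for IL-1, was at 289, 304.5, 494, and 382 CPM against 63.2, 50.3, 105, and 121 CPM in the other gated cells. The calcium-binding protein gene S100a4 was at 491, 641, 757, and 924 CPM against 130, 172, 277, and 206 CPM. S100a4 was lowest in mIgG1 members and highest in EC-Ang2 members.

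The members were far from uniform in MHC class II, which presents antigen to CD4+ T cells. Cells with at least 4000 UMIs (286, 272, 259, and 272 in mIgG1, Ang2 Ab, Ctrl, and EC-Ang2) were thinned to 4000 UMIs each so that depth did not enter. The sum of H2-Aa, H2-Ab1, H2-Eb1, and the invariant chain Cd74 had medians of 185.5, 92, 144, and 8 UMIs in these libraries. It reached from 0 to 599, 556, 481, and 618 UMIs, with a low and a high end and fewer cells between them in each library. Under 40 UMIs, that is 1% of the cell's transcripts, were 29.4% (24.2% to 35.0%), 41.2% (35.3% to 47.3%), 31.3% (25.7% to 37.3%), and 60.7% (54.6% to 66.5%) of members. EC-Ang2 thus had the largest share of class II-low cells, with an interval apart from those of the other 3 libraries, and also the fewest members with dendritic cell transcripts. Without members with dendritic or NK cell transcripts the shares were 37.4%, 52.2%, 38.3%, and 66.7%, and with at least 4 Ly6c2 UMIs 35.8%, 48%, 44.7%, and 64.1%, with EC-Ang2 highest in both. Near this threshold, from 20 to 79 UMIs, lay 35, 36, 31, and 30 cells.

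The class II-low cells carried more of the monocyte genes Vcan and Chil3 in each library. Vcan, which encodes the matrix proteoglycan versican, was at 80.4, 73.7, 80.3, and 101.5 CPM in class II-low cells of mIgG1, Ang2 Ab, Ctrl, and EC-Ang2 and at 3.71, 7.81, 9.83, and 9.35 CPM in the rest. Chil3, which encodes the chitinase-like protein Ym1, was at 7973, 4018, 2426, and 14697 CPM against 1478, 622, 341, and 2834 CPM. Ly6c2 differed less, at 2310, 1712, 2096, and 2829 CPM against 1610, 1511, 1058, and 2526 CPM. Flt3, the receptor of dendritic cell progenitors, was at 2.98, 8.93, 3.09, and 18.2 CPM in class II-low cells against 40.8, 29.7, 29.5, and 28.0 CPM. C1qa was also lower in class II-low cells, at 229, 96.0, 185, and 90.9 CPM against 697, 356, 388, and 381 CPM.

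**Figure D3:**
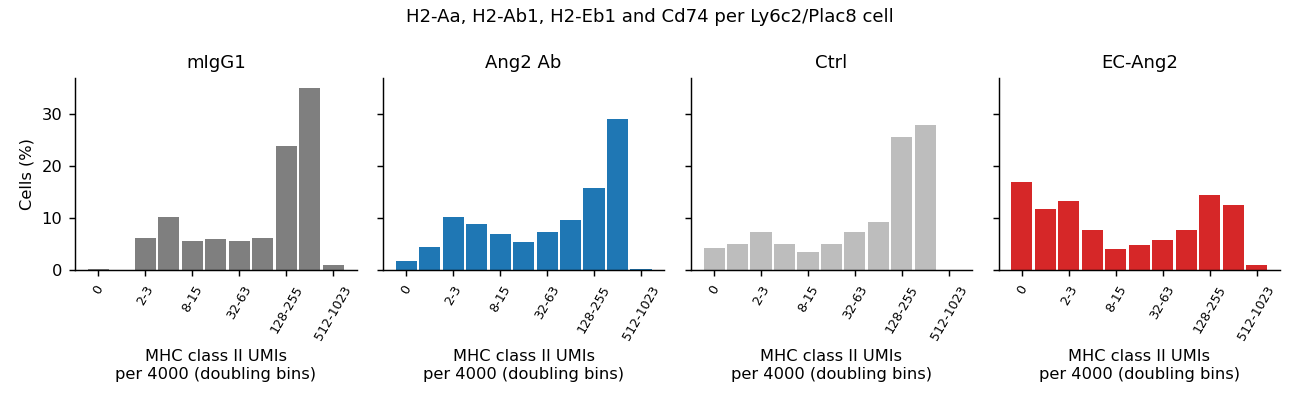
Distribution of MHC class II UMIs (H2-Aa, H2-Ab1, H2-Eb1, and Cd74 summed) over Ly6c2/Plac8 cells thinned to 4000 UMIs, as percent of cells in bins of doubling width, 1 panel per library. EC-Ang2 has most of its cells at the low end (60.7% under 40 UMIs), mIgG1 the fewest (29.4%).

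Over the whole gate, expression changed along with the UMIs of Ly6c2, Plac8, and Ifitm6. Among gated cells thinned to 4000 UMIs, those with none of these UMIs (220 of mIgG1, 196 of Ang2 Ab, 33 of Ctrl, 68 of EC-Ang2) had Ctsd at 5200, 3420, 1258, and 3750 CPM, against 1574, 1199, 792, and 1389 CPM in the 268, 503, 432, and 705 cells with 20 or more. The lipid-binding protein gene Fabp5 was at 2048, 1601, 386, and 2265 CPM at the low end and 249, 369, 94.9, and 304 CPM at the high end. Ms4a4c ran the other way, from 117, 98.2, 204.5, and 77.2 CPM to 1150, 1528, 1836, and 1480 CPM. Isg15, an interferon-induced ubiquitin-like protein gene, ran from 270.5, 457, 576, and 566 CPM to 1273, 2523, 2470, and 1700 CPM.

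Genes counted in a pair had at least 50 UMIs in both libraries together and a UMI in at least 10% of the members of 1 of them. Against mIgG1, 309 of 4553 such genes (6.79%) were higher by 1.5-fold in Ang2 Ab and 176 (3.87%) were lower. Of all 4553, 2278 had a log2 ratio above 0 and 2275 below 0. The largest group on the upper side was the interferon-induced genes, which type I interferons switch on. Of 26 measured, 26 were above 0 and 23 were higher by 1.5-fold, with a median log2 ratio of 1.13, where the median of all genes was 0.00. Cxcl10, a chemokine for activated T cells, was at 197 (178 to 217.5) CPM in mIgG1 and 938.5 (897 to 981) in Ang2 Ab, and at 879 in Ctrl and 821 in EC-Ang2. Ifit1, an RNA-binding antiviral protein gene, was at 62.9, 243.5, 170, and 149 CPM in mIgG1, Ang2 Ab, Ctrl, and EC-Ang2. Isg15 was at 1032, 2416, 2072, and 1679 CPM. The transcription factor gene Irf7 was at 309, 677, 596, and 558 CPM. The mIgG1 library was the low one in all 4 genes, and the other 3 lay nearer to one another than to it on the log2 scale. Log2 ratios of Ang2 Ab over mIgG1 were 2.25 (2.095 to 2.41) for Cxcl10, 1.95 (1.67 to 2.25) for Ifit1, 1.99 for Ifit2, 1.68 for Ifit3, 1.48 for Rsad2, 1.70 for Usp18, 1.72 for Oasl1, 1.51 for Isg20, and 1.23 for Isg15. Without members that held dendritic or NK cell transcripts, Cxcl10 had a log2 ratio of 2.25 and Ifit1 of 1.88, and in members with at least 4 Ly6c2 UMIs 2.59 and 2.15. At 4000 UMIs Cxcl10 was detected in 16.8%, 41.2%, 37.5%, and 40.1% of members of mIgG1, Ang2 Ab, Ctrl, and EC-Ang2 and in 7.84%, 9.16%, 7.13%, and 12.8% of ECs (19.9%, 43.0%, 42.5%, and 42.6% of the same members before thinning), and the cell with the most UMIs held 11.1%, 3.07%, 5.37%, and 7.71% of its UMIs.

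The promoters of these genes are shown because the genes moved together. The letters GAAANNGAA, the core of the interferon-stimulated response element, were searched on both strands in RefSeq promoters on GRCm38.p6, from 250 bases before to 50 after the start of transcription. They occurred in 8.56% of all 32851 promoters and, by gene, in 9.76% of 27025 genes, in 12 of 21 listed interferon-induced genes with an entry, and in 10 of 18 listed interferon gamma-induced genes. Matches can overlap one another, and a match is a run of letters, not a known site. The 250 bases before the start, 5′ to 3′ on the strand of the gene with matches in capitals, follow for Cxcl10 (chr5:92348890-92349139, minus strand), Isg15 (chr4:156200819-156201068, minus strand), Ifit1 (chr19:34640639-34640888, plus strand), and Ifit3 (chr19:34583279-34583528, plus strand).
Cxcl10: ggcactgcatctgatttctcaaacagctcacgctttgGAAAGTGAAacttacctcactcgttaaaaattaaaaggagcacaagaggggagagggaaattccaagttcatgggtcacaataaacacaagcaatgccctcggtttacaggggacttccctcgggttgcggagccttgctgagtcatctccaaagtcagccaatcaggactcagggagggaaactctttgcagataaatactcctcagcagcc
Isg15: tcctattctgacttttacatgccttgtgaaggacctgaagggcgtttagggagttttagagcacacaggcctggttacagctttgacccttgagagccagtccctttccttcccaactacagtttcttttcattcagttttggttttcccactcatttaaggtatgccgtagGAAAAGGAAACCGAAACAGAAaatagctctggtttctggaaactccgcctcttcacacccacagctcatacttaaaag
Ifit1: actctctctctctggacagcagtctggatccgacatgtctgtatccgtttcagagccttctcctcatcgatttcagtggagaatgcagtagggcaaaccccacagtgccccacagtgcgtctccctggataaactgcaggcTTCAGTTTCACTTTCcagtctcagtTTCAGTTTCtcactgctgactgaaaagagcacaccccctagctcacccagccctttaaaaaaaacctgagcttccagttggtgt
Ifit3: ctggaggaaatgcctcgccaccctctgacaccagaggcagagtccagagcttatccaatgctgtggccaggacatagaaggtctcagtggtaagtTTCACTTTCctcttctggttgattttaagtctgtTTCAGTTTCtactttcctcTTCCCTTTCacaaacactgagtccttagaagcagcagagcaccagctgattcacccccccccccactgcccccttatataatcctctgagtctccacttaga
Isg15, Ifit1, and Ifit3 each held 3 matches within 155 bases of the start, and Cxcl10 held 1, beginning 213 bases before it. Ifit2, with a log2 ratio like that of Ifit1, held none in these bases of either of its listed promoters, nor did Irf7.

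Interferon gamma-induced genes were also higher in Ang2 Ab, with 9 of 21 past 1.5-fold, 1 lower by that much, and a median of 0.55. Irgm1, an immunity-related GTPase gene, was at 72.3, 172, 292, and 228 CPM in mIgG1, Ang2 Ab, Ctrl, and EC-Ang2. Among chemokines, 5 of 12 counted were higher by 1.5-fold and 0 lower. Ccl2, a ligand of Ccr2, was at 41.1 (32.8 to 51.0) CPM in mIgG1 and 172 (155 to 191) in Ang2 Ab, and at 229 and 188 CPM in Ctrl and EC-Ang2. At 4000 UMIs it was detected in 8.39% of mIgG1 and 21.7% of Ang2 Ab members and in 2.61% and 2.98% of ECs (9.09% and 25.4% of the same members before thinning). Cxcl2, a neutrophil attractant gene, was at 158, 416, 286, and 199 CPM. Its UMIs lay in 73 of 360 mIgG1 and 77 of 416 Ang2 Ab members, and 3 Ang2 Ab cells held 39.4% of them. Without the top cell of each library its log2 ratio in this pair was 1.245.

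Macrophage genes were lower in Ang2 Ab members. Of 24 counted, 21 were below 0, 7 were lower by 1.5-fold, and 0 were higher by that much, with a median of -0.39. Apoe, the lipid carrier apolipoprotein E, was at 8434 (8308 to 8561) CPM in mIgG1 and 3417 (3339 to 3498) in Ang2 Ab, a log2 ratio of -1.30, and at 3380 and 3770 CPM in Ctrl and EC-Ang2. Acp5, which encodes an acid phosphatase, was at 136, 49.0, 56.7, and 61.8 CPM. The lipid receptor gene Trem2 was at 171, 86.9, 107, and 95.7 CPM. As with the interferon-induced genes, mIgG1 was the library that stood apart, here as the high one. The other gated cells went the same way, with medians of -0.42 for macrophage genes and 1.01 for interferon-induced genes. MHC class II genes were all below 0, 10 of 10, with none past 1.5-fold and a median of -0.29. The list median was -0.29 without members with dendritic or NK cell transcripts and -0.24 with at least 4 Ly6c2 UMIs. H2-DMb2 went from -0.29 to 0.004 without the former (84.3 and 84.5 CPM in mIgG1 and Ang2 Ab). With at least 4 Ly6c2 UMIs it was at 2.23 (26.2 and 123 CPM), but 9 and 20 of those members held dendritic cell transcripts. The remaining named genes were Scgb3a1, Gm9733, and the chemokine gene Ccl22 on the upper side, and Fpr2, Rnaseh2c, S100a9, Ctsd, Saa3, C1qa, and Rrad on the lower side. Ccl22, 1 of the chemokines past 1.5-fold and of the 9 dendritic cell genes, was at 46.6 and 171 CPM in mIgG1 and Ang2 Ab, and at 22.5 and 60.6 CPM in members with at least 4 Ly6c2 UMIs. S100a9, which encodes a calprotectin subunit, rested on 1 mIgG1 cell that held 51.4% of its UMIs, and without the top cell of each library, left out after the data were seen, its log2 ratio went from -0.90 to -0.36. Scgb3a1 was at 17.8, 79.3, 43.8, and 18.5 CPM, of which the free RNA estimate covered 119.5%, 69.0%, 73.8%, and 92.5%.

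The controls show how far 2 libraries without a change in Ang2 differed here. Ctrl and mIgG1 also differed in substrain, age, day, toxin dose, and antibody treatment, whereas mIgG1 and Ang2 Ab differed only in the antibody given. The shares that follow are therefore no measure of the spread between libraries within the blockade pair. In Ctrl, 580 of 5082 genes (11.4%) were higher by 1.5-fold than in mIgG1 and 256 (5.04%) lower, both larger shares than in the blockade pair. Interferon-induced genes had a median of 1.13 there too, with 24 of 26 past 1.5-fold, and Apoe a log2 ratio of -1.32. Interferon gamma-induced genes had a median of 0.89, with 14 of 22 higher by 1.5-fold and 1 lower. Chemokines had a median of 1.09, with 11 of 13 higher and 1 lower. The 2 comparisons share mIgG1, so its own level enters both.

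**Figure D4:**
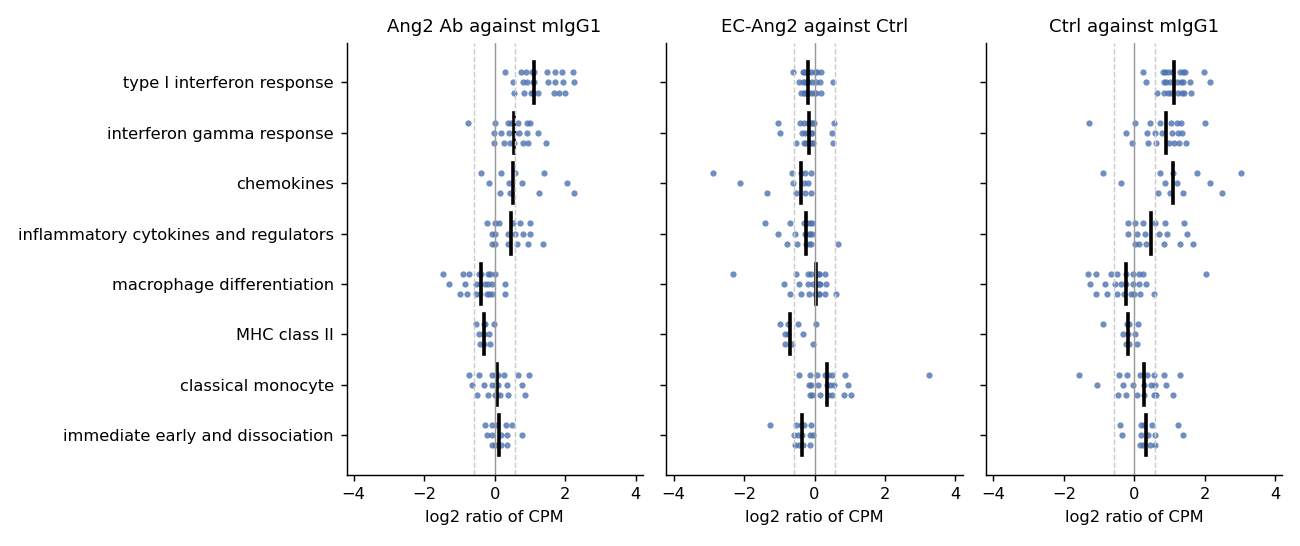
log2 ratio of CPM for each counted gene (points) of 8 gene lists in Ly6c2/Plac8 cells, with the list median (black bar) and 1.5-fold lines (dashed), for Ang2 Ab against mIgG1, EC-Ang2 against Ctrl, and Ctrl against mIgG1. The interferon list lies to the right for Ang2 Ab against mIgG1 and for Ctrl against mIgG1 (both medians 1.13) and near 0 for EC-Ang2 against Ctrl (-0.18).

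In the overexpression pair, 133 of 5126 genes (2.59%) were higher by 1.5-fold in EC-Ang2 than in Ctrl and 307 (5.99%) were lower. Of all 5126, 2334 had a log2 ratio above 0 and 2792 below 0, the background for the list counts below. Among counted genes with at least 200 UMIs the widest difference was in Chil3, at 997 (954 to 1042) CPM in Ctrl and 9406 (9270 to 9543) in EC-Ang2, a log2 ratio of 3.24 (3.17 to 3.31), with 2986 and 2176 CPM in mIgG1 and Ang2 Ab. It was detected in 35.1% of Ctrl and 71.3% of EC-Ang2 members at 4000 UMIs, and in 2.04% and 22.9% of ECs. Without members that held dendritic or NK cell transcripts the log2 ratio was 3.00, in members with at least 4 Ly6c2 UMIs 2.78, and in the other gated cells 2.68. Saa3, an acute phase serum amyloid gene, was at 928, 513, 314, and 1406 CPM in mIgG1, Ang2 Ab, Ctrl, and EC-Ang2, a log2 ratio of 2.16 over Ctrl. In the other gated cells Saa3 was at 1348, 337, 779, and 1406 CPM, so Ctrl and EC-Ang2 lay closer there. At 4000 UMIs it was detected in 35.7%, 22.8%, 18.9%, and 38.2% of members and in 17.4%, 7.06%, 2.76%, and 12.5% of ECs. The membrane gene Ms4a8a was at 89.7, 69.7, 79.0, and 220 CPM, and the collagenase gene Mmp8 at 46.6, 40.4, 50.2, and 123.5 CPM. EC-Ang2 was the highest of the 4 libraries in each of these 4 genes. Ly6c2, at 1314 CPM in Ctrl and 2636 in EC-Ang2, was used by the rule, so its log2 ratio of 1.00 is only a description. Mgst1, a microsomal glutathione transferase gene, and F13a1, the coagulation factor XIII A chain gene, had log2 ratios of 1.03 and 0.83.

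Of the 22 classical monocyte genes, 16 were above 0, 5 were higher by 1.5-fold, and 0 lower, with a median of 0.36 where that of all genes was -0.03. The median was 0.22 without members with dendritic or NK cell transcripts and 0.18 with at least 4 Ly6c2 UMIs, 0.07 without the 4 limits, and 0.08 in the other gated cells. Vcan (31.8 against 61.7 CPM) and Fn1 (fibronectin, 171 against 313 CPM) were among those above 0. Of 24 macrophage genes counted, 13 were above 0, 1 was higher and 3 were lower by 1.5-fold. Their median was 0.03, and 0.45 in the other gated cells. Among the highest named genes, the free RNA estimate came to 120% and 112% of the endothelial gene Ctla2a in Ctrl and EC-Ang2 and to 72.9% and 49.9% of Lcn2 (lipocalin 2). Wfdc21 and Rhov had log2 ratios of 1.62 and 1.20.

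**Figure D5:**
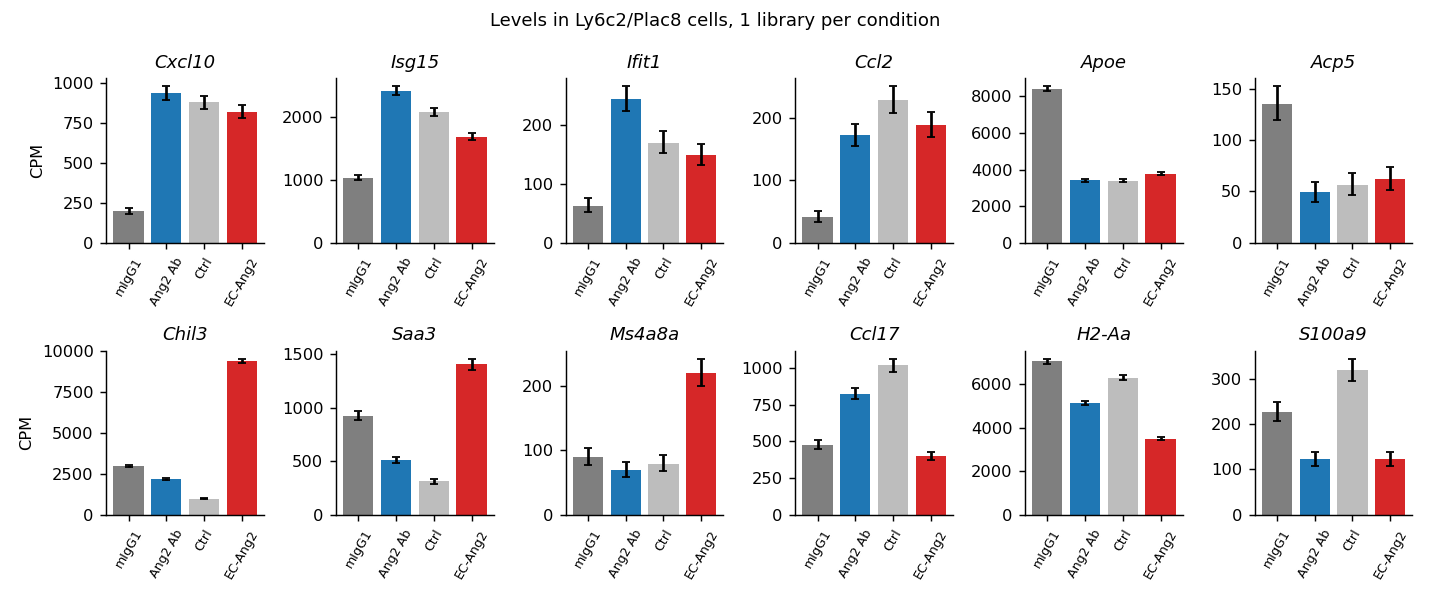
Level in CPM of 12 genes in Ly6c2/Plac8 cells, 1 bar per library with 95% exact Poisson intervals for counting error. mIgG1 is the low library for Cxcl10, Isg15, Ifit1, and Ccl2 and the high one for Apoe and Acp5, and EC-Ang2 is the high one for Chil3, Saa3, and Ms4a8a.

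MHC class II genes were lower in EC-Ang2. Of 10 counted, 9 were below 0 and 6 were lower by 1.5-fold, with a median of -0.70. H2-Aa was at 7065, 5150, 6302, and 3502 CPM in mIgG1, Ang2 Ab, Ctrl, and EC-Ang2, and Cd74 at 24991, 20104, 21826, and 12175 CPM, with EC-Ang2 lowest in both. The class II transactivator Ciita was at 20.4 CPM in Ctrl and 10.3 in EC-Ang2. Without members with dendritic or NK cell transcripts, H2-Aa had a log2 ratio of -0.82 in place of -0.85, and in members with at least 4 Ly6c2 UMIs of -0.67. The list median was -0.53 and -0.49 in these cells, and H2-DMb2 turned from -0.46 to 0.25 and 0.86. The other gated cells had a median of -0.81 for the list.

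All 13 chemokines counted were below 0 in EC-Ang2 against Ctrl, with a median of -0.38, and 5 were lower by 1.5-fold. Ccl22 and Ccl17, attractants of Ccr4-bearing T cells and known products of mature dendritic cells, were at 379 and 1017 CPM in Ctrl and 51.5 and 398 CPM in EC-Ang2. Few cells carried them. Ccl22 UMIs lay in 30 Ctrl and 13 EC-Ang2 members, and 3 cells held 51.9% and 76% of them. Ccl17 UMIs lay in 37 and 30 members, and 3 cells held 38.4% and 40.7%. Without the top cell of each library the log2 ratios were -2.84 for Ccl22 and -1.41 for Ccl17. For Ccl17 the direction depended on the cells counted. Without members with dendritic or NK cell transcripts, Ccl17 was at 12.9 CPM in Ctrl and 150 in EC-Ang2, a log2 ratio of 3.53, and in members with at least 4 Ly6c2 UMIs it was at 702 and 201 CPM. Ccl22 was at 172 and 5.34 CPM in members with at least 4 Ly6c2 UMIs. Ccl12, a Ccr2 ligand, was at 31.7, 41.8, 109, and 25.2 CPM in mIgG1, Ang2 Ab, Ctrl, and EC-Ang2. In mIgG1, 1 cell held 50% of its UMIs, and without the top cell of each library its log2 ratio in the blockade pair went from 0.40 to 1.28. Ccl7, too rare to be counted, was at 97.4 CPM in Ctrl and 6.69 in EC-Ang2, but 1 cell held 44.9% of its Ctrl UMIs. Without the top cell of each library its log2 ratio was -3.71. Interferon-induced genes, in contrast with the blockade pair, had a median of -0.18 with 0 of 26 higher and 1 lower by 1.5-fold, but one of -0.68 without the 4 limits and of -0.87 in the other gated cells. The other named genes on the lower side were S100a9, Hspa1a, Cd81, Ramp3, Fdps, Hmox1, and Rgs1. For the heme oxygenase gene Hmox1, 3 Ctrl cells held 56.8% of its UMIs, and its log2 ratio went from -1.09 to -0.70 without the highest doublet scores. S100a9 had a log2 ratio of -1.38, of -0.46 in members with at least 4 Ly6c2 UMIs, of -1.57 without members with dendritic or NK cell transcripts, and of -1.47 without the top cell of each library. Hspa1a, an inducible heat shock protein gene that dissociation can raise, was at 168, 237, 439.5, and 182 CPM, highest in Ctrl, and all 14 immediate early and dissociation genes counted were below 0 with a median of -0.37, or -0.18 in members with at least 4 Ly6c2 UMIs. Their part in the other differences was not tested.

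The question of whether the pairs went opposite ways was put to 2275 genes with at least 200 UMIs in each pair. Past 1.5-fold, 4 genes were lower in Ang2 Ab and higher in EC-Ang2, and 18 were higher in Ang2 Ab and lower in EC-Ang2. Another 4 genes were lower in both, among them S100a9 with the limit given above, and 2 higher in both. The first 4 were Saa3, the formyl peptide receptor gene Fpr2, Fn1, and Ecm1. Fpr2 was at 90.7, 44.2, 46.7, and 82.3 CPM in mIgG1, Ang2 Ab, Ctrl, and EC-Ang2. Foremost among the 18 were Ramp3, Cnn3, Iigp1, Phf11a, Clec10a, Ccnd1, Ccl17, Il1rn, Phf11d, and Ccnd2. Of the genes named in both sets, only Saa3 and Ccl17 were recounted in the restricted sets of members. Whether the others depend on members with dendritic cell transcripts was not tested. Ccl17 did not keep to this pattern without members with dendritic or NK cell transcripts, where its log2 ratio was 0.01 under blockade and 3.53 for EC-Ang2 against Ctrl. In members with at least 4 Ly6c2 UMIs it did, with log2 ratios of 2.54 and -1.80, against 0.79 and -1.35 in all members. Il1rn, the IL-1 receptor antagonist, was at 382, 671.5, 687, and 402 CPM, and Iigp1, an interferon-induced GTPase gene, at 62.9, 118, 173, and 83.9 CPM. In Fpr2 and Il1rn the levels of Ang2 Ab lay near those of Ctrl, and the levels of mIgG1 near those of EC-Ang2. Chil3 was not in the first set, since its log2 ratio in the blockade pair, -0.46 (-0.51 to -0.40), fell short of 1.5-fold.

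Genes of the Ang2 pathway and of entry into tissue were measured too. Tek, which encodes the Ang2 receptor Tie2, was at 2.48, 1.92, 2.49, and 1.03 CPM in mIgG1, Ang2 Ab, Ctrl, and EC-Ang2, and the free RNA estimate alone came to more than that in each library. Itgb1 and Itga5, which encode the integrin subunits beta 1 and alpha 5 that Ang2 can bind, were at 129, 116, 160, and 117 CPM and at 25.8, 50.4, 30.3, and 43.7 CPM. Angpt2, the Ang2 gene itself, was at 15.9 CPM in EC-Ang2 members and 0.50, 3.84, and 0.50 in mIgG1, Ang2 Ab, and Ctrl. In EC-Ang2 the free RNA estimate covered 93.0% of it. Of 9 chemoattractant receptors counted in each pair (chemokine, complement, and formyl peptide receptors), 0 were higher and 2 lower by 1.5-fold in Ang2 Ab, Fpr2 among them, and in EC-Ang2 only Fpr2 was higher and 0 were lower. Ccr1, a receptor for Ccl3 and Ccl5, was at 256, 356, 419, and 540 CPM. Of 18 inflammatory cytokines and regulators counted, 7 were higher by 1.5-fold and 0 lower in Ang2 Ab, with a median of 0.45, and in EC-Ang2 1 was higher and 4 lower, with 17 below 0 and a median of -0.23. Il1b differed little between libraries, at 2014, 2047, 2385, and 2143 CPM, and Tnf was low, at 12.4, 32.2, 39.3, and 14.9 CPM. Cycling members, with UMIs of at least 3 of 12 cell cycle genes, numbered 7, 3, 4, and 3.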

How the data were processed

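The submitters' processing notes name Cell Ranger 2.1.1, Seurat 2.3.4, and mm10. The authors deposited unnormalized UMI counts per gene and barcode (10x Genomics 3′ chemistry), empty droplets included, with totals of 66631583 (mIgG1), 57954609 (Ang2 Ab), 52084739 (Ctrl), and 52796061 (EC-Ang2). The rule, gene lists, and members were chosen with earlier results of these data known. Counts of members were summed per library in Python 3.11.15 (numpy 2.4.6, scipy 1.17.1). Ratios have exact conditional binomial intervals, and the ratio step was tested on simulated data. Named genes were the 10 highest and 10 lowest ratios per pair with 200 UMIs, up to 10 past 1.5-fold in opposite directions in the 2 pairs, 2 to 4 per list, and the 15 highest and 15 lowest against other gated cells. Some genes, 1 of the limits included, are not reported here. Doublets were kept; removing the highest Scrublet scores (scanpy 1.11.5), 0.8% per 1000 barcodes, was an alternative. Free RNA came from barcodes of up to 100 UMIs and 13 endothelial genes. Of 27998 gene IDs, 27722 matched GENCODE on GRCm38. Alternatives covered thresholds, depth, scaling, doublets, cycling cells, denominators, and free RNA.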

Additional observations from a re-analysis of the deposited data

How the results depend on the processing

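Under alternatives, 21 shares stayed within the counting interval of the reported value and 19 moved. Without the 4 limits on macrophage and activation genes the shares of mIgG1, Ang2 Ab, Ctrl, and EC-Ang2 were 62.6%, 67.2%, 84.2%, and 85.9%, and over Ptprc barcodes 9.12%, 11.2%, 10.8%, and 11.3%. Without members with dendritic or NK cell transcripts they were 17.5%, 17%, 28.4%, and 18.2%, and with at least 4 Ly6c2 UMIs 12.1%, 10.97%, 20.6%, and 13.7%. Thinning to 4000 UMIs gave 15.7% in mIgG1 and 16.4% in Ang2 Ab, and keeping cells of at least 4000 UMIs gave 17.5% in Ang2 Ab. Of the recomputed list medians, 201 stayed within the median counting interval of the list's genes and 15 moved. In the blockade pair the median moved to 1.24 for chemokines without the limits and to -0.24 for MHC class II with at least 4 Ly6c2 UMIs. In the overexpression pair, leaving out the limits moved the medians to -0.68 (from -0.18) for interferon-induced genes and -0.94 (from -0.70) for MHC class II. Chemokines moved to -0.0698 (from -0.38) and macrophage genes to 0.55 (from 0.03). Classical monocyte genes moved to 0.07 (from 0.36) and interferon gamma-induced genes to -0.77 (from -0.16). In the blockade pair, leaving out the limits moved glycolysis and hypoxia genes from -0.12 to 0.23. In the overexpression pair the chemokine median was -0.51 at 10 or more UMIs of the 3 genes and -0.55 without members with dendritic or NK cell transcripts, and the mean of each cell's CPM gave -0.79 for MHC class II. Past 2-fold, 88 genes were higher and 20 lower in Ang2 Ab, 27 and 56 in EC-Ang2, and 145 and 39 in Ctrl against mIgG1. With at least 200 UMIs these numbers at 1.5-fold were 154 and 40, 28 and 78, and 245 and 69. Without the limits, 203 were higher and 96 lower in Ang2 Ab, 256 higher in EC-Ang2, and 421 lower in Ctrl against mIgG1. The cause of these shifts was not tested, except that stricter thresholds count fewer genes. No paired analysis was possible because each condition was 1 library. Depth left genes under about 50 UMIs in a pair without a usable ratio.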
